A study of Mus musculus with 8 samples.

Results

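Checkpoint-bearing CD8 T cells were sought among pancreatic T cells of NOD mice, whose T cells destroy their own insulin-producing beta cells. A cell was counted as one when it had at least 500 detected genes, under 10% mitochondrial UMIs, at least 2 UMIs summed over the T cell receptor genes Trac, Trbc1 and Trbc2 and the CD3 genes Cd3d, Cd3e and Cd3g, at least 1 UMI of Cd8a or Cd8b1, no Cd4 UMI, and at least 1 UMI each of at least 2 of the genes Pdcd1, Lag3, Tigit, Havcr2 and Tox. A UMI (unique molecular identifier) stands for 1 captured RNA molecule. By this rule 1118 cells were members, out of 77486 cells that passed the quality limits and 24690 that passed the CD8 gate, which makes 4.53% of the CD8-gated cells (exact 95% binomial interval 4.27% to 4.79%). They were compared with 3996 CD8-gated cells that had at least 1 UMI of Ccl5, a chemokine gene of antigen-experienced CD8 T cells, and none of the 5 genes. These are called comparison cells below. The interval of the members' share pools the cells of all libraries and covers counting error only. By library the share ran from 2.31% (vehicle day 3) to 8.11% (PPCA day 2; treatments are described below), far wider than the interval.

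PD-1 (Pdcd1), LAG-3, TIGIT and TIM-3 (Havcr2) are inhibitory receptors that T cells put on their surface after repeated antigen contact, and antibodies that block such receptors are used in cancer treatment. Tox is a nuclear factor that maintains the exhausted state of chronically stimulated CD8 T cells. Within that state, progenitor cells with TCF-1 (Tcf7), Slamf6 and Id3 renew themselves and give rise to cells with TIM-3, CD39 (Entpd1) and granzyme B, and in NOD islets these pathways are known to restrain diabetes, since blocking PD-1 hastens it.

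The study used droplet-based single-cell RNA sequencing of flow-sorted CD45+ CD3+ TcR-beta+ cells, with 1 library per condition and 8 libraries in all. All donors were labelled spontaneously diabetic female NOD mice, 3 to 4 months old, with no engineered allele. The active diabetes library (blood glucose above 600 mg/dl) and the onset library (250 mg/dl) were harvested on day 1 without treatment. The other 6 came from new-onset mice at 200 to 300 mg/dl, which the protocol gives as 3 to 5 months old, harvested on days 2, 3 and 4 after daily dosing with vehicle (30% ethanol, 5% Tween 20, 65% PEG300) or with PPCA, the combination of 50 mg/kg Nutlin-3 and 25 mg/kg MK-1775. Nutlin-3 blocks the binding of MDM2 to p53, and MK-1775 inhibits the cell cycle kinase WEE1. The number of mice behind a library was not given in the sources used here, so p-values measure the spread between libraries only, and a day carries 1 library per treatment.

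The 8 libraries held between 36934580 and 67603740 UMIs. Although all were labelled female, 4 libraries (active, onset, PPCA day 2 and vehicle day 4) carried Xist and the other 4 carried Y-linked transcripts in its place, so the treatment pair matched in this respect on day 3 only. The receptor levels and the gene tests on all 8 libraries were therefore also computed in each set of 4. Any pair of libraries shared between 14 and 41 cell barcodes, at most 0.431% of the smaller library, and none of them were members. The median member had 4715.5 UMIs and 1869 genes, and the median comparison cell 5296 UMIs and 1809 genes. In the matched days the members' median ran from 3876 UMIs (PPCA day 3) to 5664.5 (vehicle day 4), so counts of receptors per cell were also made after thinning every cell to 2000 UMIs.

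Since receptor UMIs chose the members, their receptor levels are a description. Tox was the most common of the 5 genes among members, detected in 85.9%, followed by Lag3 in 60.6%, Pdcd1 in 53.8%, Havcr2 in 17.9% and Tigit in 15.8%. The 2 commonest combinations were Lag3 with Tox in 307 cells and Pdcd1 with Tox in 268 cells, and Pdcd1, Lag3 and Tox together followed with 119. Exactly 2 genes were detected in 812 members, 3 in 240, 4 in 59 and all 5 in 7. In 461 members no receptor had more than 1 UMI, so close to the threshold membership rested on single molecules.

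Among all CD8-gated cells, whose median depth was 5457 UMIs, Tox was detected in 28.2%, Lag3 in 4.09%, Pdcd1 in 3.82%, Tigit in 1.26% and Havcr2 in 1.05%. After thinning, Tox was detected in 12.6%, Lag3 in 2.45% and Pdcd1 in 2.22%. Tox was thus far more widely detected than the 4 surface receptors. When at least 2 of the 4 receptors other than Tox were asked for, a setting added after the data were seen, 444 cells remained.

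The 250 bases before the start sites of Pdcd1, Havcr2 and Tigit are shown because these genes were higher together in the same cells (values follow), and because NFAT and AP-1 are factors through which the T cell receptor acts on genes. They are taken from RefSeq on GRCm38.p6, which is not known to be the build of the deposited counts, and are written 5′ to 3′ in the direction of the gene. Of the 5 genes, 3 matched the promoter table; Lag3 and Tox are named only. Capitals mark GGAAA, the core bound by NFAT, and TGANTCA, a loose form of the AP-1 site, on either strand. N stands for any base, and it is T in the Havcr2 match.
Pdcd1: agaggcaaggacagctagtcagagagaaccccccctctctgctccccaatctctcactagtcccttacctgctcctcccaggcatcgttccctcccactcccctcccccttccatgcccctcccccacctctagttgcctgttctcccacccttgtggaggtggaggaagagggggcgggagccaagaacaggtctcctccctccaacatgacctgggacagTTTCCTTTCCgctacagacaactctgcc
Havcr2: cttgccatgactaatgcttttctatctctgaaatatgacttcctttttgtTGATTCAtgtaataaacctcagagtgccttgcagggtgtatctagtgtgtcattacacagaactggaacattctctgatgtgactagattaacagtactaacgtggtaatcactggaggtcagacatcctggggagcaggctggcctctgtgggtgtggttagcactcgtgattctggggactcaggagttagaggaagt
Tigit: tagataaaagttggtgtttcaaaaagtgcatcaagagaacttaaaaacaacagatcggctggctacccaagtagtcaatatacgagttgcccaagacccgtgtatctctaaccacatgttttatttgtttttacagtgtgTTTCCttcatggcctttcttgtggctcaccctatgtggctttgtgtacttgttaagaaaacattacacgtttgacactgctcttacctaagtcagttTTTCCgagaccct
The Pdcd1 window is at chr1:94052554-94052803 on the minus strand, the Havcr2 window at chr11:46454681-46454930 on the plus strand and the Tigit window at chr16:43664185-43664434 on the minus strand. The Pdcd1 and Tigit windows held 2 matches to GGAAA each and no TGANTCA, and the Havcr2 window held 1 TGANTCA and no GGAAA. None of the 3 held CTTTGA, the core bound by TCF-1, on either strand. Of 32851 promoter windows of this length, 55.6% held GGAAA, 6.75% TGANTCA and 13.8% CTTTGA, and the motifs marked here did not overlap one another. A match describes the letters in this window and nothing more.

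To ask whether the 5 genes went together beyond the choice, each gene was measured in cells chosen by at least 2 of the other 4, and set against Ccl5 cells with none of those 4. Every one of the 5 was higher in the chosen cells in all 8 libraries. Levels are given as CPM: a gene's UMIs, summed over the cells of one class in a library, for each 1000000 UMIs of those cells. For the log2 ratios of this comparison, counts under 3 were raised to 3, so the ratios of libraries whose Ccl5 cells held fewer than 3 UMIs (Tigit in active and vehicle day 3, Havcr2 in vehicle day 3, and thinned Havcr2 in PPCA day 3) are lower bounds.

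Havcr2 ran from 21.3 to 81.4 CPM in cells chosen without it (lowest and highest of 8 libraries, median 38.4) and from 0.615 to 5.92 CPM (median 2.96) in the Ccl5 cells. The 2 ranges did not overlap, and the mean log2 ratio was 3.96 ± 0.77 (SD, n = 8 libraries; exact two-sided sign-flip test, p = 0.00781 after Benjamini-Hochberg adjustment over the 5 genes). Lag3 ran from 81.8 to 275 CPM (median 158) against 7.58 to 13.7 CPM (median 11.95), with a mean log2 ratio of 3.84 ± 0.59.

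Pdcd1 ran from 50.4 to 154 CPM (median 75.5) against 7.50 to 37.2 CPM (median 10.2), a mean log2 ratio of 2.64 ± 0.33. Tox ran from 231 to 423 CPM (median 277) against 61.7 to 92.5 CPM (median 69.2), a mean log2 ratio of 1.99 ± 0.32. Neither pair of ranges overlapped. Tigit was the exception in this respect, with 5.46 to 27.8 CPM (median 10.8) against 0.307 to 10.4 CPM (median 4.45) and a mean log2 ratio, with the raised counts of 2 libraries, of 1.77 ± 0.75, which is not the mean of the CPM ratios. All 5 had the same p of 0.00781 before and after adjustment, the smallest that 8 libraries allow (exact sign-flip test). Each of the 5 was also higher in 4 of 4 libraries with Xist and in 4 of 4 with Y-linked transcripts.

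After thinning, the mean log2 ratio was 2.70 ± 0.75 for Lag3 and 1.85 ± 0.31 for Tox over 8 libraries. It was 3.27 ± 0.94 for Havcr2 without vehicle day 2 and 2.09 ± 0.68 for Pdcd1 without vehicle day 3, since the chosen cells of those libraries held fewer than 3 UMIs of the gene. The adjusted p was 0.0156 for each of these 4 genes (exact sign-flip test). For Havcr2 and Pdcd1 it covers only the libraries kept, which were picked by the counts of the chosen cells. In the libraries left out, Havcr2 was at 0 CPM in the chosen cells against 10.6 CPM in the Ccl5 cells (vehicle day 2). Pdcd1 was at 71.4 against 29.7 CPM (vehicle day 3). Tigit had too few UMIs for a thinned test. Its thinned level was lower in the chosen cells than in the Ccl5 cells in onset (7.94 against 9.78 CPM), vehicle day 2 (0 against 4.59) and PPCA day 3 (0 against 2.05). It was higher in the remaining libraries.

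**Figure D1:**
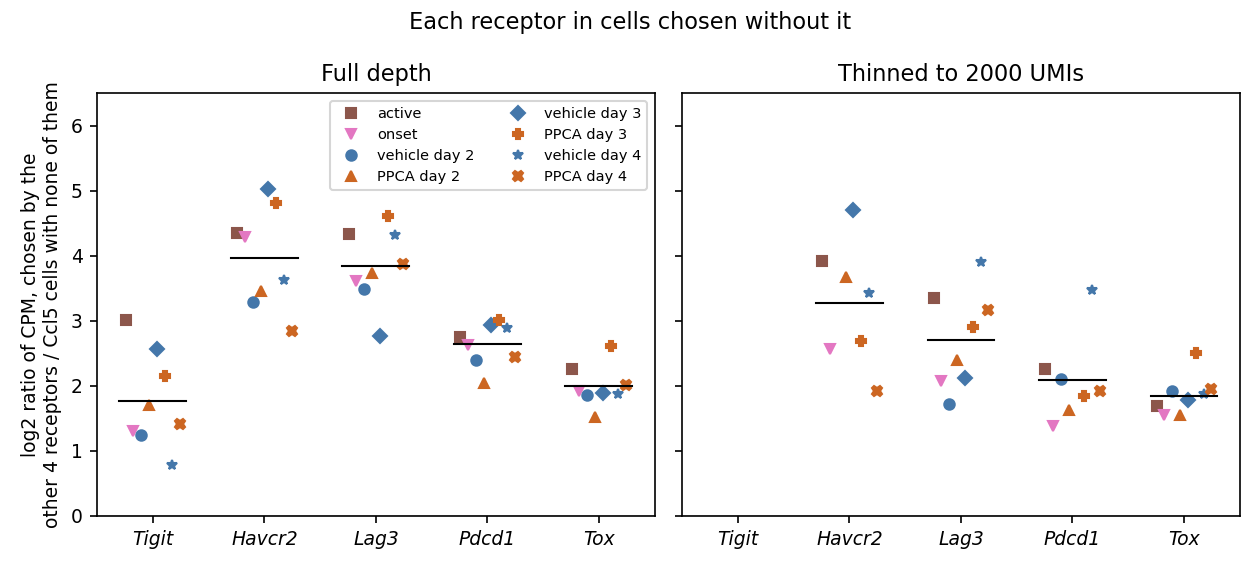
Log2 ratio of CPM (y axis) for each receptor gene (x axis) in cells chosen by at least 2 of the other 4 genes, over Ccl5 cells with none of those 4; 1 point per library, line at the mean, full depth on the left and cells thinned to 2000 UMIs on the right. Counts under 3 are drawn as 3. Every point drawn lies above 0, with the means of Havcr2 and Lag3 highest at full depth. Libraries with fewer than 3 UMIs in the chosen cells, and thinned Tigit, are not drawn. Among these, thinned Havcr2 in vehicle day 2 was lower in the chosen cells, as was thinned Tigit in onset, vehicle day 2 and PPCA day 3.

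In the authors' deposited table of cluster marker genes, Lag3, Pdcd1 and Tox are listed for the cluster named CD8 TRM TEM. Lag3 and Tox are also listed there for CD4 Th17 and Tox for CD4 Treg, and Tigit and Havcr2 for none of the clusters.

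Members held a program of named genes beyond the receptors. Against comparison cells, summed per library, 2012 of 8391 genes tested passed an adjusted p of 0.05 (24% of those tested; 981 higher or 11.7%, 1031 lower or 12.3%; edgeR quasi-likelihood test with library as block). In the 4 libraries with Xist alone 1209 genes passed, and in the 4 with Y-linked transcripts alone 1012. The 15 genes the cell gates used were left out of the test. These fold changes are scaled by TMM, which centres the bulk of genes at 0, while levels are plain CPM. Scaled by library totals only, a setting added after the data were seen, the median of all genes was 0.19 on the log2 scale and 3092 genes passed, 2620 higher and 472 lower, so the balance of rises and falls depends on the scaling. Of a list of 18 genes for exhaustion and NFAT-driven transcription, 17 rose and none fell, with a median log2 fold change of 1.54 against 0.00 over all genes tested. Of 11 genes for recirculation and the naive state, all 11 fell, with a median of -1.27. By library totals only, 18 of the first list rose, and of the second 10 fell and none rose.

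Among called genes with at least 20 CPM on average and 1 sign in all 8 libraries, the largest rise was of Nrn1, neuritin, a surface molecule known from anergic and regulatory T cells. It ran from 45.0 to 74.7 CPM in members (median 64.0) and from 1.11 to 5.42 CPM in comparison cells (median 2.90), so the ranges lay far apart. The fitted log2 fold change was 4.17 ± 0.17 (SE, edgeR adjusted p = 4.59e-17). Tox2, the closest relative of Tox, ran from 22.3 to 90.0 CPM against 0.701 to 6.05 CPM, with log2 fold change 3.85 ± 0.21 (SE, edgeR adjusted p = 2.01e-14). Tnfrsf9, the costimulatory receptor 4-1BB that marks recent antigen contact, ran from 28.4 to 90.6 CPM against 0.701 to 11.7 CPM, a log2 fold change of 3.43. Each of the 3 was higher in every library.

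The next largest rises within the same limits were those of Cd200 (log2 fold change 3.22), Maf (2.99), Izumo1r (2.97), Tnfrsf4 (2.92), Ikzf2 (2.89), Chst2 (2.76) and Ptms (2.70). Maf is a transcription factor that promotes inhibitory receptor transcription, Izumo1r encodes folate receptor 4, Tnfrsf4 encodes OX40 and Ikzf2 encodes Helios. Eomes, a T-box factor of memory and exhausted CD8 T cells, rose by 0.96. Nr4a3, named after its value was seen, was the one gene of the exhaustion list that did not pass (0.37).

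Ikzf2, Ctla4, Tnfrsf4 and Izumo1r are also known from regulatory T cells. A Foxp3 UMI was found in 40 members (3.58%) and in 37 comparison cells (0.926%), and the summed level of the 4 regulatory T cell markers Foxp3, Il2ra, Ikzf2 and Ctla4 ran from 173 to 631 CPM in members and from 16.5 to 150 CPM in comparison cells. With cells carrying Foxp3 left out and at least 3 CD8 UMIs asked for, 4.77% of the remaining CD8-gated cells were members, and the log2 fold changes were 2.89 for Ikzf2, 1.89 for Ctla4, 2.05 for Tnfrsf4 and 2.90 for Izumo1r, all still past the threshold.

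Of 11 other inhibitory receptor genes tested, 6 rose and none fell. Entpd1, the ectoenzyme CD39, ran from 31.3 to 110 CPM in members and from 4.56 to 22.8 CPM in comparison cells and rose by a log2 fold change of 2.10 (SE 0.14). Ctla4, the CD28 antagonist, rose by 1.95, Cd160 by 1.72 and Klrc1, the NKG2A chain, by 1.36, each in 8 of 8 libraries.

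Effector genes were mostly higher. Of 15 cytotoxic and effector genes tested, 11 rose and 1 fell. Gzmb, granzyme B, was 16.3 CPM in members of PPCA day 3, 26.1 in vehicle day 4 and 34.3 in PPCA day 4, and between 92.5 and 183 CPM in the other 5 libraries, against 3.51 to 28.5 CPM in comparison cells. It was higher in members in all 8 libraries though the ranges overlapped, with log2 fold change 2.48 ± 0.30 (SE, edgeR adjusted p = 1.47e-07). Gzmk rose by 1.25, Ifng by 1.27 and Zeb2, a factor of terminal effector cells, by 1.35. The member that fell was Gzmm, granzyme M, at 0 to 16.6 CPM against 24.9 to 129 CPM, the lowest log2 fold change named in this comparison (-3.25, SE 0.20).

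All 4 chemokine ligand genes tested rose. Xcl1, lymphotactin, which draws cross-presenting dendritic cells, ran from 333 to 906 CPM in members against 52.3 to 141 CPM, a log2 fold change of 2.58 (SE 0.09). Ccl4 ran from 426 to 1563 CPM against 38.6 to 709 CPM, with a log2 fold change of 2.11, and Ccl3 rose by 2.52. Cxcl10 rose by 3.09, in 7 of 8 libraries. Ccl5 itself chose the comparison cells and is not tested; it was detected in 82.3% of members.

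**Figure D2:**
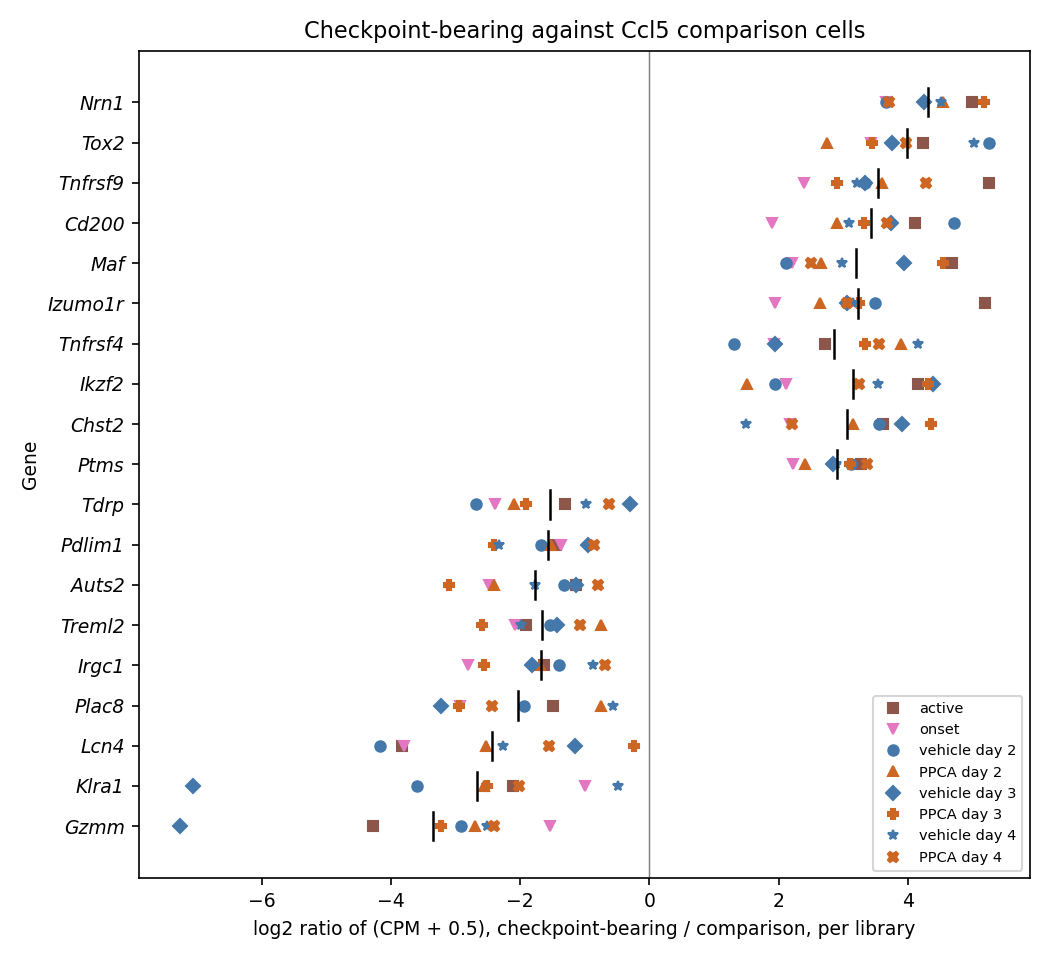
Log2 ratio of (CPM + 0.5) in checkpoint-bearing over comparison cells (x axis) for 10 of the highest and 9 of the lowest fold changes among genes that passed the test with 1 sign in all 8 libraries and at least 20 CPM on average (y axis); 1 point per library, line at the mean. Of the genes drawn, Nrn1 and Tox2 lie farthest right and Gzmm farthest left.

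Within the same limits, the lowest fold changes after Gzmm were those of Klra1 (-2.51), an NK-type receptor, Lcn4 (-2.22), Plac8 (-1.83), Irgc1 (-1.74), Treml2 (-1.70), Auts2 (-1.68), Pdlim1 (-1.65) and Tdrp (-1.54). Il7r, the survival receptor of resting T cells, ran from 127 to 339 CPM against 343 to 755 CPM, a log2 fold change of -1.39 (SE 0.06). Lef1, a partner of TCF-1, fell by 1.36 on the log2 scale and Igfbp4 by 1.43.

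The progenitor list did not move one way: of 13 genes 4 rose and 7 fell. Tcf7 ran from 149 to 284 CPM in members against 266 to 353 CPM and fell in 8 of 8 libraries (log2 fold change -0.67 ± 0.07, SE, edgeR adjusted p = 1.54e-08). Xcl1, Myb (1.59), Slamf6 (0.32, higher in 6 of 8 libraries on the scaled values of the test) and Bcl6 (0.87, named after its value was seen) rose. Among members with Ccl5 only, Slamf6 had a log2 fold change of -0.18 and Myb of -0.15, so both turned there. Slamf6 was also at -0.070 among members with at least 3 of the 5 genes.

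T cell receptor response genes were higher in 8 and lower in 2 of 15. Spry1, a brake on receptor signalling, rose by 3.17 and Egr2, an early response factor tied to anergy, by 1.91 (7 of 8 libraries). Cd69, an early activation marker, fell by 0.28 on the log2 scale, but did not pass by library totals only. Of 8 costimulatory receptors 5 rose, among them Icos (1.14) and Slamf1 (0.73), and 1 fell. Of 10 tissue residency genes 4 rose, with Ahr at 1.36, Cxcr6 at 0.96 and Rgs1 at 0.90, and 1 fell. Itgae, the residency integrin CD103, did not pass (-0.09, and 0.097 by library totals only). By library totals only, 11 receptor response genes rose and 1 fell, 7 costimulatory receptors rose and none fell, and 5 residency genes rose and none fell.

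Of 11 cell cycle genes tested 6 rose and 1 fell. Mki67, the Ki-67 gene of cycling cells, ran from 11.6 to 50.8 CPM in members against 2.45 to 11.1 CPM in comparison cells, a log2 fold change of 2.18 (SE 0.22), and was higher in every library. Stmn1 rose by 1.68 and Top2a by 1.44. Of 13 p53 target genes, 5 rose, led by Fas (1.12), and 2 fell, led by Bbc3 (-1.18), while Mdm2 was at 0.20 and did not pass. Of 10 interferon response genes 2 rose, Ifi27l2a (0.85) and Isg20 (0.54), and Bst2 fell (-0.43). Of 13 glycolysis genes Gapdh (0.48) and Pkm (0.37) rose and Eno1 (-0.53) and Slc2a1 (-0.67) fell. Of 8 early response genes that tissue dissociation can induce, Fosb rose (0.57) and Dnajb1 (-0.38) and Ier2 (-0.31) fell. The counts of these lists depended on the scaling. By library totals only, 9 p53 target genes rose, Mdm2 (0.39) among them, and 1 fell, 9 glycolysis genes rose and 1 fell, and 5 early response genes rose and 1 fell, with Slc2a1 and Ier2 no longer past the threshold. After thinning to 2000 UMIs, where 40 of 73 named calls could still be tested, Fas, Ifi27l2a, Bst2, Pkm, Fosb, Dnajb1, Cd69, Slamf6 and Trp53inp1 no longer passed, and Isg20 (-0.021) and Ccng1 (-0.030) changed sign and did not pass. Isg20 and Slc2a1 also missed the threshold without the active library, Isg20 without PPCA day 2 and Slc2a1 without vehicle day 2.

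Of 87 ribosomal protein genes, a list added after the data were seen, 80 fell and 1 rose, with a median log2 fold change of -0.58, and by library totals only 77 fell and 3 rose. The median share of mitochondrial UMIs was lower in members than in comparison cells in all 8 libraries, at 2.25% against 2.72% over all cells, and its part in these results was not tested. Gamma-chain transcripts rose, though the sort was for TcR-beta: Tcrg-C1 by 1.37, Tcrg-C4 by 1.24, Tcrg-C2 by 1.08, Trgv2 and Tcrg-V1 each by 1.02, and near-identical gamma segments may share reads. Trdc, the delta-chain gene, had a UMI in 5 members (0.447%) and in 41 comparison cells (1.03%). Of 8 T cell receptor V segment genes tested, 3 rose and none fell.

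The 4 B cell markers summed to 3.55 to 18.7 CPM in members, with Ms4a1 at 0, against 8.75 to 31.2 CPM in comparison cells, and the 5 myeloid markers ran from 4.74 to 18.3 CPM (median 9.68), with Adgre1 at 0, against 0.556 to 43.6 CPM (median 4.59). The myeloid sum was higher in members in 7 of 8 libraries, all but vehicle day 4, and the gamma-delta T cell markers ran from 126 to 426 CPM against 51.2 to 212 CPM. The 5 NK cell markers summed to between 136 and 281 CPM against 62.5 to 139 CPM; Eomes, which the exhaustion list also holds, was the only one tested. The 10 pancreas markers summed to 856 CPM in members of vehicle day 3 and to 18.6 to 117 CPM in the other 7 libraries (median of 8 libraries 59.4), against 10.5 to 81.6 CPM (median 40.2), with Gcg and Sst at 0 in both. Prss2, a pancreatic protease, was at 192 CPM in members of vehicle day 3 and higher in members in 5 of 8 libraries (log2 fold change 1.75, and 1.12 without vehicle day 3). The part of these transcripts in the results was not tested. Likely doublets were 8.86% of members and 8.46% of comparison cells, and without them 1980 genes were called.

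**Figure D3:**
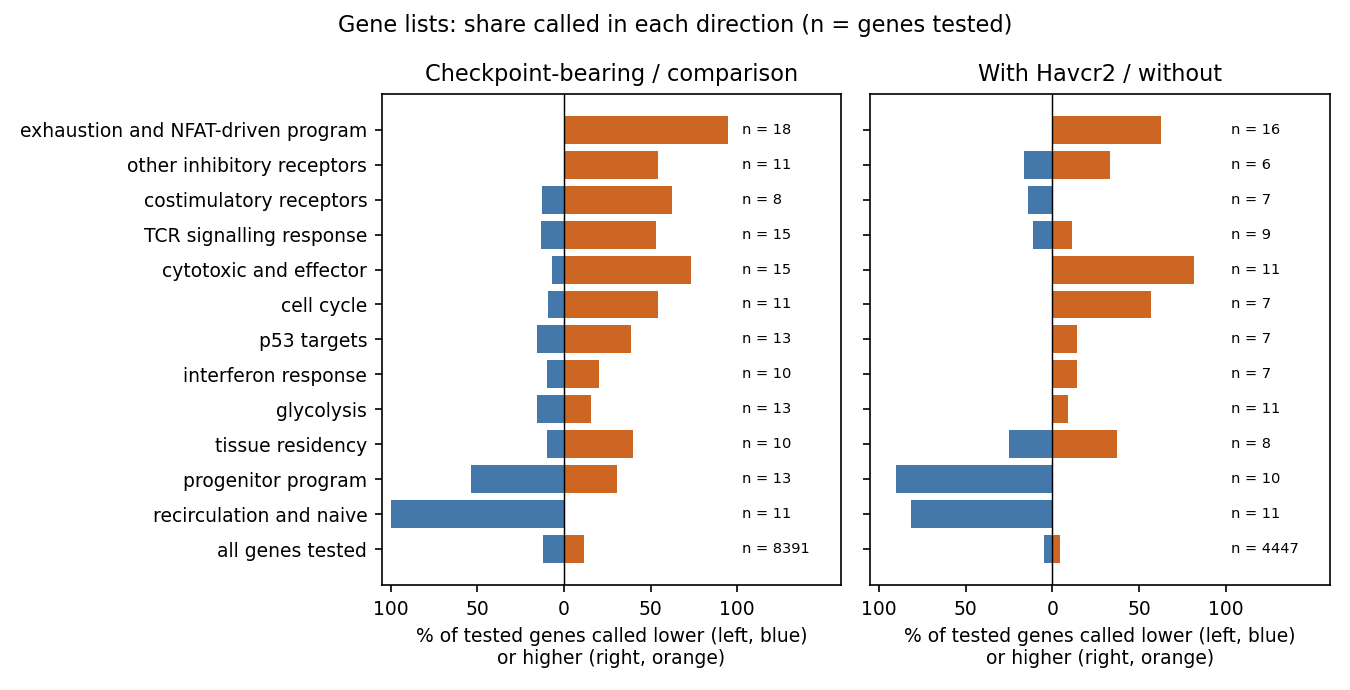
Share of the tested genes of each list (y axis) called higher (to the right) or lower (to the left, both in % of genes tested), for checkpoint-bearing over comparison cells on the left and for members with Havcr2 over those without on the right. The lowest bar pair, all genes tested, is the background; the exhaustion list is nearly all higher and the recirculation list all lower in the left panel.

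With the number of the 5 genes detected, the levels of most of these genes changed in steps. Unlike the comparison cells, the cells with none or 1 of the 5 genes were not limited to those with Ccl5. The part of this in the steps was not tested. The median over libraries for Ccl4 was 53.5 CPM in CD8-gated cells with none of the 5 genes, 173 with 1, 768 with exactly 2 and 2015 with 3 or more. For Gzmb it was 2.63, 5.54, 33.3 and 167 CPM, and for Tox2 0.451, 3.66, 21.9 and 61.7 CPM. Il7r and Tcf7 fell only from 1 gene on: Il7r was at 454, 452, 287 and 82.6 CPM, and Tcf7 at 333, 350, 236 and 204 CPM.

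Over the 21015 CD8-gated cells left after thinning, the genes most like the number of detected receptors were S100a6 (mean Spearman rho within library 0.257), Ccl4 (0.249), S100a4 (0.214), Rgs1 (0.202) and Ifng (0.193), among 4408 genes. The lowest were Rps20 (-0.218), Rps19 (-0.215), Rps28 (-0.213), Rps29 (-0.208) and Rps24 (-0.207). Each kept its sign in 8 of 8 libraries; the points are cells that share a library and a fixed depth, and these values are descriptions.

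Havcr2 split the members into 200 cells with a UMI of it and 918 without. Cells with Havcr2 held more Gzmb, Ccl3, Ccl4 and proliferation transcripts and less of the progenitor genes, Xcl1 among them. Of 4447 genes tested, 409 passed (9.2%; 192 higher or 4.32%, 217 lower or 4.88%; edgeR quasi-likelihood test with library as block). By library totals only 227 were higher and 184 lower, and by limma-voom 322 and 207, so the balance of rises and falls depends on the method. In the 4 libraries with Xist alone 256 genes passed, and in the 4 with Y-linked transcripts alone 132. The classes ran from 11 to 56 cells with Havcr2 per library, with a median depth of 5010.5 UMIs against 4600. Since a member with Havcr2 needs 1 further gene and one without needs 2, the other receptors are fixed in part by the rule and were left out.

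Gzmb was 521 CPM in cells with Havcr2 in the active library, 180 in onset, 601, 1023 and 111 in vehicle days 2, 3 and 4, and 534, 40.8 and 148 in PPCA days 2, 3 and 4. In cells without Havcr2 it was 14.5 CPM in active, 49.9 in onset, 41.8, 18.3 and 10.3 in the vehicle libraries and 34.5, 11.2 and 19.8 in the PPCA libraries. It was higher with Havcr2 in all 8 libraries, and PPCA day 3 alone fell within the range of the cells without it. The log2 fold change, 3.78 ± 0.24 (SE, edgeR adjusted p = 3.31e-14), was the largest of the genes named for this split.

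Of 11 cytotoxic and effector genes tested 9 rose with Havcr2 and none fell. Zeb2 rose by 1.04, Ifng by 1.03 and Gzmk by 0.92. Ccl4 ran from 1100 to 4047 CPM with Havcr2 and from 303 to 1309 without, a log2 fold change of 1.63, and Ccl3 rose by 1.85. Of 7 cell cycle genes 4 rose and none fell. Mki67 ran from 13.6 to 210 CPM with Havcr2 and from 9.46 to 32.1 without, higher in 8 of 8 libraries (log2 fold change 2.41, SE 0.30), and Stmn1 rose by 1.80 and Hmgb2 by 0.84. After thinning, 13 of 46 named calls could still be tested and 8 no longer passed, Gzmk and Hmgb2 among them.

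Of the exhaustion list 10 of 16 rose and none fell, among them Prdm1, which encodes Blimp-1, by 1.23, Tox2 by 1.07 (6 of 8 libraries) and Rgs16 by 0.84. Ikzf2 (0.12), Maf (0.30) and Tnfrsf9 (-0.70), which set members apart from comparison cells, did not pass. Entpd1 ran from 77.4 to 232 CPM with Havcr2 and from 22.4 to 66.6 without, so the ranges did not overlap (log2 fold change 1.57, SE 0.17). Klrc1 rose by 1.07 and Cd160 fell by 0.98 on the log2 scale. The other genes among the 10 highest were Setbp1 (1.72), Wdr95 (1.48), Pqlc3 (1.38), Chst2 (1.38) and Hip1 (1.24).

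Of 10 progenitor genes tested 9 fell with Havcr2 and none rose. Tcf7 ran from 30.0 to 189 CPM with Havcr2 (median 54.8) and from 207 to 329 CPM without (median 258), so every library with Havcr2 lay below every library without it (log2 fold change -1.84 ± 0.19, SE, edgeR adjusted p = 4.29e-09). Slamf6 ran from 11.1 to 89.6 CPM against 114 to 259 CPM, again without overlap (-1.96, SE 0.21). Id3, a factor of progenitor and memory cells, fell by 2.81 on the log2 scale and Il7r by 1.45. Xcl1 fell by 2.15 on the log2 scale and was lower in 7 of 8 libraries; vehicle day 2 stood apart at 1462 CPM with Havcr2 against 557 without, from 13 cells with Havcr2.

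The lowest fold change was that of Tnfsf8, the CD30 ligand, which was at 0 CPM in the cells with Havcr2 of 5 libraries and at most 14.1 CPM in the other 3, against 41.8 to 182 CPM without. Its fitted log2 fold change of -3.77 depends on how zeros are handled and is no bound. Other genes among the lowest, each lower in 8 of 8 libraries, were Dapl1 (-2.88), Nsg2 (-2.02), Cd2ap (-1.61), Sidt1 (-1.55) and Nrn1 (-1.55). Nrn1, the leading gene of members against comparison cells, was thus lower in members with Havcr2 than in those without. Of the 11 recirculation genes 9 fell, and of 81 ribosomal protein genes 66 fell. The median share of mitochondrial UMIs was 2.03% with Havcr2 and 2.30% without, lower with Havcr2 in 7 of 8 libraries, all but PPCA day 3.

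**Figure D4:**
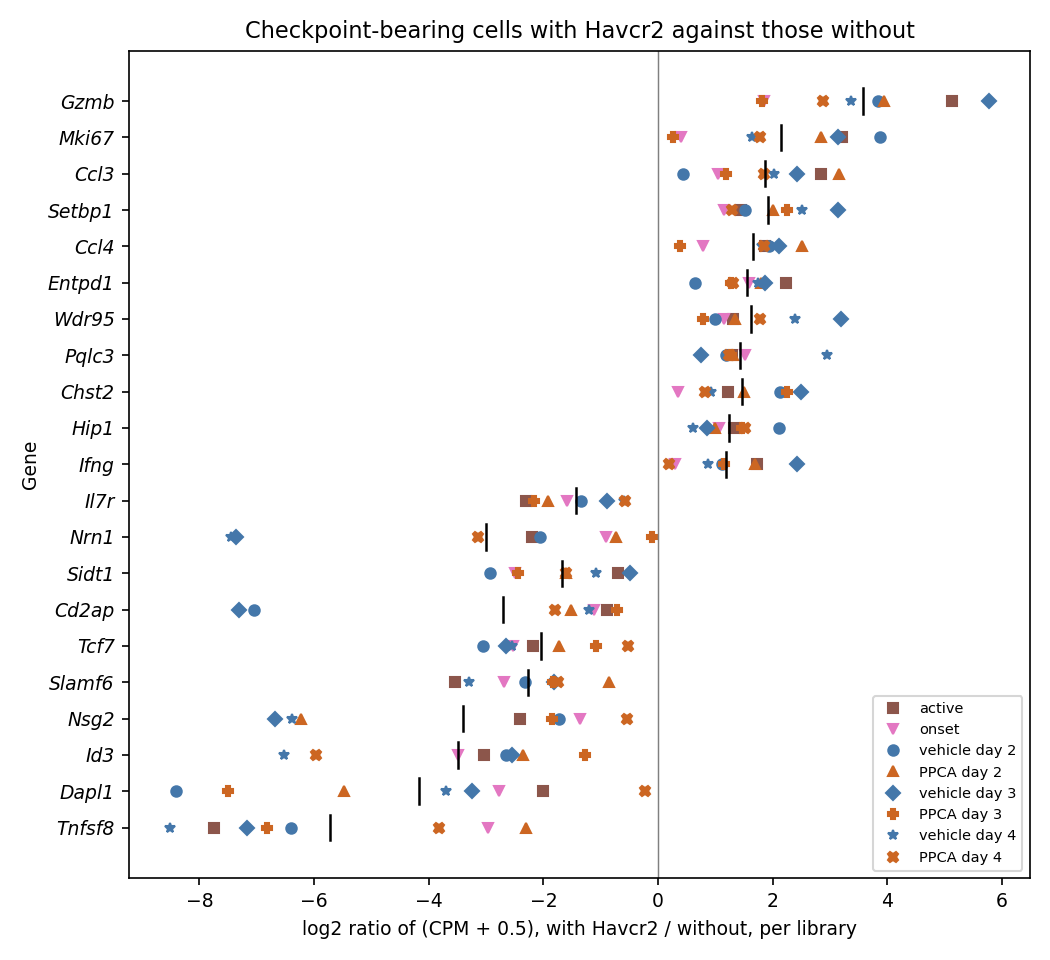
Log2 ratio of (CPM + 0.5) in members with Havcr2 over members without (x axis) for the 10 highest and 9 of the lowest genes that passed with 1 sign in all 8 libraries, and for Ifng and Il7r (y axis); 1 point per library, line at the mean. Points far to the left are libraries with no UMI of the gene in the cells with Havcr2; Gzmb lies farthest right and Tnfsf8 farthest left.

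NK cell markers summed to a higher level with Havcr2 in all 8 libraries, 207 to 408 CPM (median 264) against 99.2 to 261 CPM (median 167), with Klrb1c and Ncr1 at 0 with Havcr2 and Eomes called higher (0.67). Gamma-delta T cell markers were higher in 7 of 8 libraries, all but PPCA day 2, at 202 to 550 CPM (median 352) against 116 to 403 CPM (median 213), and Tcrg-C2 was called (0.43), though not when any 1 library other than PPCA day 2 was left out. The summed regulatory T cell markers ran from 140 to 815 CPM with Havcr2 and from 179 to 645 CPM without, and Ikzf2 and Ctla4 did not pass. The 4 B cell markers ran from 0 to 14.5 CPM with Havcr2, with Cd79a and Ms4a1 at 0, and the 5 myeloid markers from 0 to 41.3 CPM, with Adgre1 and Csf1r at 0. The part of these transcripts in the Havcr2 split was not tested.

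The share of members among CD8-gated cells was higher under PPCA than under vehicle on each of 3 days, but the difference did not exceed what 3 pairs can show. It was 5.93% with vehicle and 8.11% with PPCA on day 2, 2.31% and 2.78% on day 3, and 2.72% and 5.02% on day 4. The exact 95% intervals were 4.88% to 7.14% and 7.11% to 9.20% on day 2, 1.87% to 2.83% and 2.23% to 3.43% on day 3, and 2.17% to 3.37% and 4.43% to 5.65% on day 4; they cover counting error only and overlapped on days 2 and 3. The spread between days within a treatment was wider than the gap: 3.66% ± 1.98 with vehicle and 5.30% ± 2.68 with PPCA (SD, n = 3). The mean difference was 1.65 percentage points ± 1.02 (SD over days), with p = 0.25 in a two-sided exact sign-flip test over days, the smallest that 3 days allow.

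After thinning the shares were 2.81% and 3.75% on day 2, 0.606% and 1.45% on day 3 and 1.14% and 2.68% on day 4, again higher with PPCA on each day. As a share of Ccl5 cells, with members limited to those with Ccl5, they were 13.4% and 15.3%, 7.43% and 14.1%, and 9.77% and 11.3%. The sex-linked transcripts differed between the libraries of a pair on days 2 and 4, which cannot be told apart from treatment there; on day 3, where they matched, the difference was the smallest of the 3 as a share of CD8-gated cells and the largest as a share of Ccl5 cells.

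**Figure D5:**
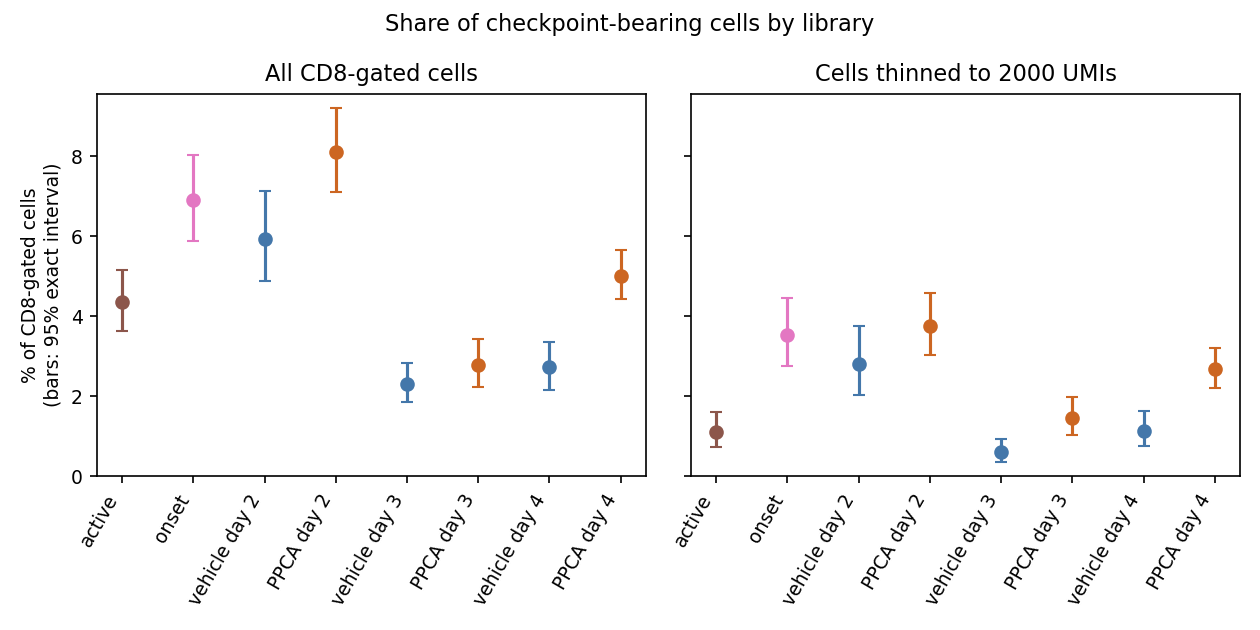
Checkpoint-bearing cells in % of CD8-gated cells (y axis) by library (x axis) with exact 95% binomial intervals, at full depth on the left and after thinning to 2000 UMIs on the right. PPCA lies above vehicle on days 2, 3 and 4 in both panels, and day 2 is high in both treatments.

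No gene passed the test for PPCA against vehicle within members: 0 of 6319 (0%; edgeR with day as block), with 319 genes at an unadjusted p under 0.05, 1 gene called by DESeq2 and 0 by limma-voom. Without the day 4 pair 66 genes were called. On simulated data of this design 69.8% of 2-fold changes in 6102 genes were recovered (134 of 192), with 14 false calls. The simulated counts held no shift shared by the genes of a library, such as a difference in sex. The recovered share may therefore be too high for these data, and 0 calls do not show that PPCA had no effect. Il7r ran from 127 to 231 CPM in the vehicle libraries and from 316 to 339 CPM in the PPCA libraries, without overlap (log2 fold change 0.77 ± 0.20, SE, edgeR adjusted p = 0.65). The lists that hold Il7r went the other way. Of 11 recirculation genes 1 had a positive fold change (median -0.23), and of 12 progenitor genes 3 did (median -0.23). Over all genes 3076 of 6319 were positive (median -0.01). Entpd1 was 63.1, 32.3 and 31.3 CPM with vehicle and 110, 69.7 and 41.2 CPM with PPCA on days 2, 3 and 4, higher on 3 of 3 days (log2 fold change 0.72 ± 0.23, SE, edgeR adjusted p = 0.79).

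Gzmk (0.43) was higher on 3 of 3 days and Ifng (0.35) on 2 of 3. Gzmb (-0.60), Cd69 (-0.53), Slamf6 (-0.22), Mki67 (-0.20), Tcf7 (-0.13), Ccng1 (-0.06), Mdm2 (0.02) and Itgae (0.44) had both signs over the days. None passed. Of 11 p53 target genes tested, 4 had a positive fold change, with a median of -0.02 against -0.01 over all genes, and of 10 cell cycle genes 2 did, with a median of -0.11. Cdkn1a, the main p53 target of cell cycle arrest, was too low to be tested in members.

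The interferon response list had the largest median of the functional lists, 0.57, with 7 of 8 genes positive and none past the threshold. Ifit3 was 31.5, 0 and 3.48 CPM with vehicle and 72.7, 18.6 and 14.5 CPM with PPCA on days 2, 3 and 4 in members (log2 fold change 1.63 ± 0.43, SE, edgeR adjusted p = 0.65). In comparison cells 2 of 9147 genes were called (0.0219%), with 567 at an unadjusted p under 0.05: Ifit3, an interferon-induced antiviral gene, rose by 2.23 (0.0109% of genes called higher; SE 0.21, edgeR adjusted p = 0.00233) and Rps15, a ribosomal protein gene, fell by 0.93 on the log2 scale (0.0109% called lower; edgeR adjusted p = 0.0236). Neither was called without day 2 or without the day block, Rps15 was not called after thinning, and 114 genes were called without day 4. The PPCA effect on Ifit3 differed between members and comparison cells by -0.45 (SE 0.56), which did not pass. In a test of that difference for every gene, 2 of 9111 passed (0.022%), the antigen presentation genes Cd74 and H2-Aa, whose counts are given further on.

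Active and onset diabetes are 1 library each, so their differences have no replicate check. Members were 4.35% (interval 3.64% to 5.16%) of CD8-gated cells in active and 6.90% (5.88% to 8.03%) in onset, and 1.11% and 3.53% after thinning. Havcr2 was detected in 14.3% of members in active and 29.2% in onset, against 11.0% to 25.3% in the other 6 libraries. Of 3356 genes that reached 50 CPM in either library, 88 (2.62%) differed 2-fold or more, 28 (0.834%) higher in active and 60 (1.79%) lower, and in comparison cells 65 of 2884 did (2.25%).

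Gzma, granzyme A, had 1 UMI in members of active and 170 in onset (1.11 and 201 CPM), and its log2 ratio, with counts under 3 raised to 3, was -5.91; in comparison cells it was 2.87. Ccl1 had 5 and 201 UMIs, Tcrg-C1 2 and 56, and Nr4a2 25 and 145, with 27.9 and 172 CPM. Hsph1, a heat shock chaperone, was at 53.5 and 258 CPM. In comparison cells the log2 ratio of Tcrg-C1 was -3.56, that of Nr4a2 -3.20 and that of Hsph1 -1.58, so these 3 differed the same way there. After thinning, the log2 ratio of Tcrg-C1 in members was -1.51 in place of -4.31. How many cells gave the Gzma and Ccl1 UMIs was not tested.

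Higher in active were Iigp1 at 60.2 against 2.37 CPM, Plac8 at 50.1 against 5.92, Neurl3 at 70.2 against 22.5, Itgae at 118 against 39.1 and Nxpe3 at 63.5 against 22.5. Among members with Ccl5 only, the log2 ratio of Iigp1 was 2.23 in place of 4.08, and that of Plac8 0.85 in place of 3.08. Exact 95% Poisson intervals for Itgae were 96.7 to 143 CPM in active and 26.9 to 54.9 CPM in onset, which cover counting error only. In comparison cells the log2 ratio of Itgae was -0.95 against 1.60 in members. Ifng was at 127 CPM in active and 505 in onset, and Ccl4 at 426 and 1425, while Gzmb was at 92.5 and 93.5. The log2 ratio in comparison cells was -3.05 for Ifng, -3.20 for Ccl4 and -1.06 for Gzmb, against -1.99, -1.74 and -0.016 in members. The lower Ifng and Ccl4 in active were thus not particular to members.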

How the data were processed

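Per the submitters' processing notes, the authors made the deposited UMI counts per gene and cell with Cell Ranger 6.1.2 (the file headers name 6.0.0) and used Seurat. Which build and gene models they counted on was not given in the sources used here, nor whether introns were counted. The authors' deposited table of cluster markers gives log2 fold changes and p-values per cluster, whose test is not stated. Counts are raw, so the counting interval of a share covers sampling of cells or UMIs only.

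The members, gene lists and named-gene rules were chosen with earlier results of these data known. UMIs were summed per library and cell class and tested with edgeR 4.0.16 (quasi-likelihood, TMM scaling, filterByExpr, Benjamini-Hochberg adjusted p under 0.05); residual degrees of freedom were 7 for the 8-library comparisons and 2 for PPCA against vehicle. The 15 gating genes were left out of every test. Named genes were the 5 receptors; of each list, the 4 called genes with the largest absolute fold change; a fixed set of genes named in any case; the 10 highest and 10 lowest called with 1 sign in all 8 libraries and at least 20 CPM on average (for PPCA, 5 and 5 with 1 sign on all 3 days); and, for active against onset, the 5 highest and 5 lowest ratios among genes reaching 50 CPM in either library, where counts under 3 were raised to 3.

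Day was a block for PPCA, since same-day libraries deviated together: correlations of deviations were 0.20, 0.12 and 0.36 in members and 0.22, 0.35 and 0.49 in comparison cells on days 2, 3 and 4. A sample number stands for its day. Doublets were scored with Scrublet in scanpy 1.11.5, taking the top 0.8% per 1000 barcodes; they were kept in the results and removed in an alternative. Further alternatives were DESeq2 1.42.0, limma-voom (limma 3.58.1), DESeq2 size factors, no count filter, no block, each library left out, thinning to 2000 UMIs, comparison cells matched by UMI total, other receptor numbers and a stricter CD8 gate. Those that count receptors without Tox, library totals without TMM, and the stricter gate and doublet removal for the Havcr2 split, were chosen after the data were seen. Some genes that these rules or the marker lists hold are not reported here. On simulated counts the test recovered 97.4% of 2-fold changes for members against comparison cells (8240 genes, 15 false calls) and 92% for the Havcr2 split (4252 genes, 10 false calls). In every simulation each gene was drawn on its own with the spread fitted to these libraries, so shifts shared by genes of a library were absent.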

Additional observations from a re-analysis of the deposited data

Results flagged for a closer look

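The PPCA effect differed between members and comparison cells for Cd74 and H2-Aa, both MHC class II antigen presentation genes, by a test of that difference in edgeR. For Cd74 the fitted difference was 5.01 on the log2 scale (SE 0.77, adjusted p = 0.00687). Its UMIs in members were 0, 1 and 6 with vehicle and 3, 18 and 32 with PPCA on days 2, 3 and 4, and in comparison cells 76, 2 and 33 with vehicle and 3, 7 and 14 with PPCA. For H2-Aa the fitted value was 11.4 (SE 1.86, adjusted p = 0.0131), which rests on zeros and is no bound. Its UMIs in members were 0, 0 and 0 with vehicle and 1, 6 and 9 with PPCA, and in comparison cells 44, 1 and 15 with vehicle and 2, 0 and 0 with PPCA. Neither was called by DESeq2 or limma-voom, without the day block, or without day 2 or day 4, H2-Aa was also not called without day 3, and both were called with doublets removed. On simulated data of this design 40.1% of 2-fold differences were recovered among 8968 genes. In members the 4 B cell markers summed to 13.3, 18.7 and 12.2 CPM with vehicle and 7.88, 9.29 and 5.34 CPM with PPCA on days 2, 3 and 4, lower with PPCA on each day, and the 5 myeloid markers to 8.30, 13.6 and 10.4 CPM and 13.1, 6.97 and 18.3 CPM, higher with PPCA on days 2 and 4. In comparison cells the B cell markers summed to 31.2, 18.2 and 17.7 CPM with vehicle and 14.2, 17.8 and 8.75 CPM with PPCA, and the myeloid markers to 4.97, 2.77 and 43.6 CPM and 4.98, 0.556 and 8.36 CPM. The part of other cells' RNA was not tested.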

How the results depend on the processing

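Each receptor's rise in cells chosen by the others kept its direction and its side of the threshold in every alternative that tested it. Thinned Tigit had too few UMIs to test, and was lower in the chosen cells of onset, vehicle day 2 and PPCA day 3. Thinned Havcr2 was tested without vehicle day 2, where it was lower, and thinned Pdcd1 without vehicle day 3. The PPCA share stayed higher under every alternative, by 0.666 to 3.34 percentage points. For members against comparison cells (2012 genes called), library totals without TMM called 3092 (2620 higher, 472 lower, against 981 and 1031), DESeq2 1295, Xist libraries alone 1209, Y-linked libraries alone 1012, thinned cells 435, comparison cells matched by UMI total 1294 and cells with exactly 1 receptor, set against comparison cells in place of members, 1019. Without 1 library the count was 1678 to 1953. For the Havcr2 split (409), Xist libraries alone gave 256, Y-linked libraries alone 132, thinned cells 50, limma-voom 529 (322 higher) and leaving out 1 library 283 to 387. For PPCA in members (0), library totals without TMM called 5, DESeq2 1, no count filter 41, a sex term 27, doublet removal 1, no Tox 3 and leaving out a day 0 to 66. In comparison cells (2), library totals without TMM called 4, DESeq2 19, no count filter 105, a sex term 42 and leaving out a day 0 to 114. For the difference of PPCA effects (2), DESeq2 and limma-voom called 0, no count filter 25, thinned cells 1 and leaving out a day 1 to 2. The genes 2-fold apart between active and onset were 960 after thinning, against 88, with few cells left.

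Without the block for library or day, the pairing of classes is ignored: 1059 genes were called for members against comparison cells, 114 for the Havcr2 split, 0 for PPCA in members, 0 in comparison cells and 0 for the difference. Of named calls the unblocked fit lost 16 of 73 for members, Ifng and Slamf6 among them, and 17 of 46 for the Havcr2 split, Ifng, Tox2 and Xcl1 among them.

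Signs turned for these log2 fold changes. For members against comparison cells, Slamf6 was at -0.18 among members with Ccl5, -0.070 with at least 3 receptors and -0.075 without Tox, Myb at -0.15 among members with Ccl5, and Isg20 at -0.021 and Ccng1 at -0.030 after thinning. Itgae, not called, was at 0.097 by library totals and ran from -0.31 to 0.14 (without the onset library). For the Havcr2 split Mdm2, not called, was at -0.017 without the count filter, -0.14 in Y-linked libraries, -0.013 with the stricter gate and -0.067 to 0.19 without 1 library. For PPCA in members, none called, leaving out a day gave -0.61 to 0.14 for Slamf6, -0.20 to 0.050 for Mki67, -0.10 to 0.12 for Mdm2, -0.10 to 0.71 for Ifng, -0.12 to 0.0038 for Ccng1, -0.32 to 0.10 for Tcf7, -0.23 to 0.96 for Itgae and -1.47 to 0.35 for Gzmb. Without Tox, Mdm2 was at -0.18 and Gzmk at -0.012. The cause of these shifts was not tested. Over all alternatives, named calls for members kept direction and side of the threshold in 1546 of 1623 values, and those of the Havcr2 split in 739 of 824. The Havcr2 split rests on 11 to 56 cells with Havcr2 a library.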
